A study of Mus musculus with 56 samples.

Results

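Drug efflux, glutathione and aldehyde-handling genes were read in single cells sorted from mouse colon tumors. The set held 10 genes, taken by symbol from a table of 24410 Ensembl gene IDs: the glutathione peroxidase gene Gpx2, the glutathione transferase genes Gstp1, Gstm1 and Gsta4, the glutathione synthesis gene Gclc, the quinone reductase gene Nqo1, the aldehyde dehydrogenase gene Aldh1a1 and the efflux transporter genes Abcc1, Abcb1a and Abcg2. All 10 had 1 row each in the table. The title of the series joins PROX1, quiescence and chemoresistance of colon cancer stem cells, and the question here was which of these genes the cells expressed and whether they went with Prox1, with Cdkn1c or with cycling genes.

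All cells came from 1 male ApcMin/+ mouse, heterozygous in the germline for the truncating Min allele of Apc, a Wnt pathway inhibitor gene. The state of the other Apc allele in the tumor cells was not examined. The animal drank water with 2% dextran sulfate sodium (DSS), which injures the colonic epithelium, for 5 days from an age of 10 weeks, and 3 tumors were pooled after digestion at 12 weeks. DAPI-Cd31-Cd45-Epcam+Cd24+ cells were sorted singly and amplified from polyA RNA by Bead-seq, and cDNA positive for Lgr5 in a PCR of 32 cycles was sequenced, so neither Lgr5-negative cells nor a normal colon, an untreated mouse or a drug-treated group was part of the comparison. The 56 libraries formed 1 group, and 6 pairs with near-identical profiles were averaged, which left 50 cells of 1 animal with no replicate, so the relations below are descriptions without tests.

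Glutathione is the main small thiol of the cell. Glutamate-cysteine ligase, whose catalytic subunit Gclc encodes, makes its precursor, glutathione peroxidases use it to reduce peroxides, and glutathione transferases couple it to reactive compounds, including several cytotoxic drugs. The conjugates leave through ABC transporters such as the product of Abcc1, while the products of Abcb1a and Abcg2 pump out many unmodified drugs, and both quinone reductase and aldehyde dehydrogenases detoxify reactive carbonyl and quinone compounds. Many of these genes are targets of the transcription factor NRF2, which oxidants and electrophiles release from its inhibitor KEAP1, and Gpx2 is best known from the epithelium of the gut.

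Values were TPM, transcript abundances scaled by transcript length, so that levels can be compared between genes, and to a fixed total per library, so that no read depth is kept. Seen means a level of at least 1 TPM in that cell. Cells held 1316 to 7234 seen genes, with a median of 5903. Epcam and Cd24a were seen in 50 of 50 cells, Pecam1 (CD31) and Ptprc (CD45) in 0, and Lgr5 in 38. The cell with 1316 genes stood apart, with all 10 genes of the set unseen, and another, with 3935 genes, held 354212 TPM of Paneth cell markers, so relations that either cell moves past the size counted below, and the levels it sets the low end of, are given without it as well.

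Several of the genes have near-identical copies elsewhere in the genome, and their sequences decide how far a value belongs to the gene named. Gpx2 (ENSMUSG00000042808, chr12:76792333-76795554, minus strand, GRCm38, protein-coding, overlapping Fntb) has a processed pseudogene, Gpx2-ps1 (chr7:100264675-100265245, plus strand, inside Pgm2l1). The coding sequence of Gpx2 and the annotated pseudogene transcript matched at 561 of 572 aligned bases (98.1%), with 10 mismatches, 1 gap and an unbroken identical run of 140 bases. Gstp1 (ENSMUSG00000060803, chr19:4035407-4037985, minus strand) and its tandem neighbour Gstp2 (chr19:4040285-4046023, minus strand) matched at 621 of 633 coding bases (98.1%), with an identical run of 303. The stretches below, of 60 bases each, are among those where the copies differ, and capitals mark the mismatches. Bases 20 to 79 are counted from the start codon of Gpx2 and from the first base of the pseudogene transcript, and bases 1 to 60 from the start codons of Gstp1 and Gstp2.
Gpx2 20 to 79: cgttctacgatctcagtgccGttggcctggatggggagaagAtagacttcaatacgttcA
Gpx2-ps1 20 to 79: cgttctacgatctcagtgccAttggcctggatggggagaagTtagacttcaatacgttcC
Gstp1 1 to 60: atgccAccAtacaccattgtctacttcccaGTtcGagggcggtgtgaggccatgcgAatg
Gstp2 1 to 60: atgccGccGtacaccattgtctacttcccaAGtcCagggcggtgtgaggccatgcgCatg
The first pair differed at 3 bases and the second at 6. Reads from any of the longer identical runs fit either copy, and how the authors' estimation divided them is not stated in the labels.

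Promoter windows were examined for the genes that went together across cells and for the Gstp pair. RefSeq windows of GRCm38.p6, 300 bases around a transcript start and mostly upstream of it, were at hand for 7 of the 10 genes and not for Gsta4, Gclc and Abcc1. Both strands were searched for the antioxidant response element core TGACNNNGC, to which NRF2 binds, for the AP-1 site TGAGTCA, and for TCF letters, namely CTTTG followed by AA, by AT, by TA or by TT. The antioxidant core and the other strand of the AP-1 site share their opening TGAC and can overlap. These letters were in 12.4%, 5.2% and 16.9% of 32851 RefSeq windows. Capitals mark a match.
Gpx2 promoter, chr12:76795505-76795804, minus strand: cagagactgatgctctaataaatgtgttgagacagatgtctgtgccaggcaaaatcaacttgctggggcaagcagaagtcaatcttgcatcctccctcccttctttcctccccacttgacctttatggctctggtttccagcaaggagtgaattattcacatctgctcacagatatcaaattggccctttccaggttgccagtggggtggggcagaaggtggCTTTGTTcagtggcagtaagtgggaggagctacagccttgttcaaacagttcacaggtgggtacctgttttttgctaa
Nqo1 promoter, chr8:107403156-107403455, minus strand: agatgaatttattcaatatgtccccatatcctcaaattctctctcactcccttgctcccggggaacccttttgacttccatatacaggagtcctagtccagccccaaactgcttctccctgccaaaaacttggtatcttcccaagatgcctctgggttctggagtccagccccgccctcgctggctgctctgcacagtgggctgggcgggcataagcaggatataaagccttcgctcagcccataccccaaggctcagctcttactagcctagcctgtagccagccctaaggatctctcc
Gstp1 promoter, chr19:4037863-4038162, minus strand: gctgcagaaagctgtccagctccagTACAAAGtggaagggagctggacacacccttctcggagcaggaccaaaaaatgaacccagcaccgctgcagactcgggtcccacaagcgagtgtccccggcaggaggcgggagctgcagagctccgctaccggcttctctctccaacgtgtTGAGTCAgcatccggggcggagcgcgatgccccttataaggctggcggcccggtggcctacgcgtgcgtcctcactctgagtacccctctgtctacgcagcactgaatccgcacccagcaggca
Gstp2 promoter, chr19:4042172-4042471, minus strand: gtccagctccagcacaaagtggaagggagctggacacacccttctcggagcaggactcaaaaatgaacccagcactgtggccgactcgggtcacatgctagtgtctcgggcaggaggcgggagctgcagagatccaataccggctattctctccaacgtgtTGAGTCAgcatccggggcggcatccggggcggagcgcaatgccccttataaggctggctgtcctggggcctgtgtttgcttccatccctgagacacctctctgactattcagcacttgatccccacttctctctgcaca
The Gpx2 window held the TCF letters from base 223 and neither of the other motifs, and the Nqo1 window held none of the 3. The AP-1 site stood at base 177 of the Gstp1 window and at base 162 of the Gstp2 window, and the Gstp1 window also held the TCF letters on its other strand from base 26. Among the rest, the window of Abcb1a held the antioxidant core at base 277 and TCF letters at 2 places. That window (chr5:8566841-8567140) lay far upstream of the gene span given below for Abcb1a. A window of Aldh1a1 held the AP-1 site at base 194 and TCF letters at 2 places. The other Aldh1a1 window and all windows of Gstm1 and Abcg2 held none of the 3 motifs. A match is a description of letters and shows no binding. The lack of a match holds only for the 300 bases of a window, and sites farther from the start were not searched.

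The 10 genes ranged from seen in nearly every cell to seen in none. Gpx2 and Gstp1 were seen in nearly every cell, Gstm1, Gsta4 and Abcc1 in over 50% of cells, Gclc and Nqo1 in a minority, and Aldh1a1, Abcb1a and Abcg2 in 1 cell or none. Cells held between 0 and 7 of the 10 genes, with a median of 5, and 18 cells held exactly 5. Shares of cells below carry exact Clopper-Pearson intervals at 95%, which cover the counting of cells only.

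Gpx2 had the highest level of the set. It was seen in 48 of 50 cells (96%, interval 86.3% to 99.5%). Its lowest value was 0, its median 1193 and its highest 6904 TPM, and it ranked 114 by mean TPM among all genes in the table. The 2 cells without it were the cell with the fewest genes, where it was listed at 0, and a cell at 0.45 TPM. The latter had 5276 seen genes, somewhat below the median, and held the highest Gstp1 of all cells, 1149 TPM, the highest Abcc1, 11.9 TPM, and Prox1 at 48.4 TPM.

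The value of Gpx2 cannot be separated from that of its pseudogene. Gpx2-ps1 was seen in 49 cells (median 1471 TPM), was above Gpx2 in 41 of 50 cells, and Spearman's rho between the levels of the pair was 0.98. The ratio of Gpx2 to Gpx2-ps1 had a median of 0.856. How reads were split between them was not tested. With the pair summed, rho was -0.52 with Prox1, 0.42 with the S phase list and 0.31 with the G2/M list, close to the values of Gpx2 by itself given below.

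Among the transferases, Gstp1, a pi-class enzyme that conjugates alkylating agents and platinum compounds, was high in nearly every cell. Its share of cells was 49 of 50 (98%, interval 89.4% to 99.95%). The lowest value was 0, the median 521 and the highest 1149 TPM, and 47 cells had 100 TPM or more. Without the cell with the fewest genes it was seen in 49 of 49 cells, from 9.69 TPM upward. On the log2(TPM + 1) scale its level was 8.72 ± 1.68 (SD, 50 cells), against 9.72 ± 2.40 for Gpx2, so the levels of these neighbours in the order overlapped. Without that cell they were 8.90 ± 1.12 and 9.92 ± 1.96 (SD, 49 cells) and still overlapped. Gstp2 was seen in 39 cells (median 143 TPM), and was below Gstp1 in 41 cells and above it in 8. Unlike the Gpx2 pair, the Gstp pair did not go together across cells (rho 0.02), and Gstp3 was seen in 5 cells.

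Gstm1 and Gsta4 were each missing from a large minority of cells and varied more. Gstm1 (chr3:108012255-108017973, minus strand), a mu-class transferase, was seen in 33 cells (66%, interval 51.2% to 78.8%), with a median of 23.9 and a highest of 302 TPM. Gsta4 (chr9:78182774-78209349, plus strand), an alpha-class enzyme that conjugates the lipid peroxidation product 4-hydroxynonenal, was seen in 31 cells (62%, interval 47.2% to 75.4%), with a median of 6.88 and a highest of 128 TPM. Log2 levels of 3.82 ± 3.0 and 2.50 ± 2.21 (SD, 50 cells) overlapped between the pair. The main mu-class gene of these cells was Gstm5, seen in 49 cells (median 311 TPM) and above Gstm1 in 47. Its coding sequence matched that of Gstm1 at 73.6% of aligned bases, well below the identity of the Gstp and Gpx2 pairs. Gstm7 was seen in 24 cells, Gstm6 in 18, Gstm4 in 11, Gstm2 in 7 and Gstm3 in 3.

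Gclc and Nqo1 were seen in fewer cells, and Nqo1 was either clear or near 0. Gclc (chr9:77754535-77794485, plus strand) was seen in 19 cells (38%, interval 24.7% to 52.8%), with a median of 0.01 and a highest of 28.2 TPM, and was listed at 0 in 25. Nqo1 (chr8:107388225-107403206, minus strand), which reduces quinones and is a standard readout of NRF2, was seen in 12 cells (24%, interval 13.1% to 38.2%) and was at 10 TPM or more in 10 of them, with a highest value of 34.2 TPM. It was listed at 0 in 31 cells. Aldh1a1 (chr19:20492715-20643465, plus strand, overlapping C730002L08Rik and Gm6684), a retinaldehyde dehydrogenase often used as a stem cell marker, was seen in 1 cell (2%, interval 0.0506% to 10.7%) at 3.56 TPM and listed at 0 in 49. Prox1 was at 0.06 TPM in that cell. Its relatives Aldh1a7 and Aldh1a3 were seen in 1 cell each and Aldh1a2 in 0.

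Of the 3 efflux genes, Abcc1 was the only one seen in any cell. Abcc1 (chr16:14361558-14475737, plus strand, overlapping Gm23116), which encodes the transporter MRP1 for glutathione conjugates, was seen in 27 cells (54%, interval 39.3% to 68.2%), with a median of 1.40 and a highest of 11.9 TPM. Its median was close to the detection threshold, and it was above 0 in 41 cells. Abcb1a (chr5:8660077-8748575, plus strand), one of the pair of mouse P-glycoprotein genes, was listed at 0 in all 50 cells (interval up to 7.11%), and its copy Abcb1b was seen in 1 cell at 1.14 TPM. Abcg2 (chr6:58584523-58695676, plus strand), the side-population transporter, was above 0 in 7 cells with a highest value of 0.26 TPM, so it was seen in 0 of 50 (interval up to 7.11%). As TPM keep no depth, low transcripts of these genes that the libraries did not capture were not detectable.

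**Figure D1:**
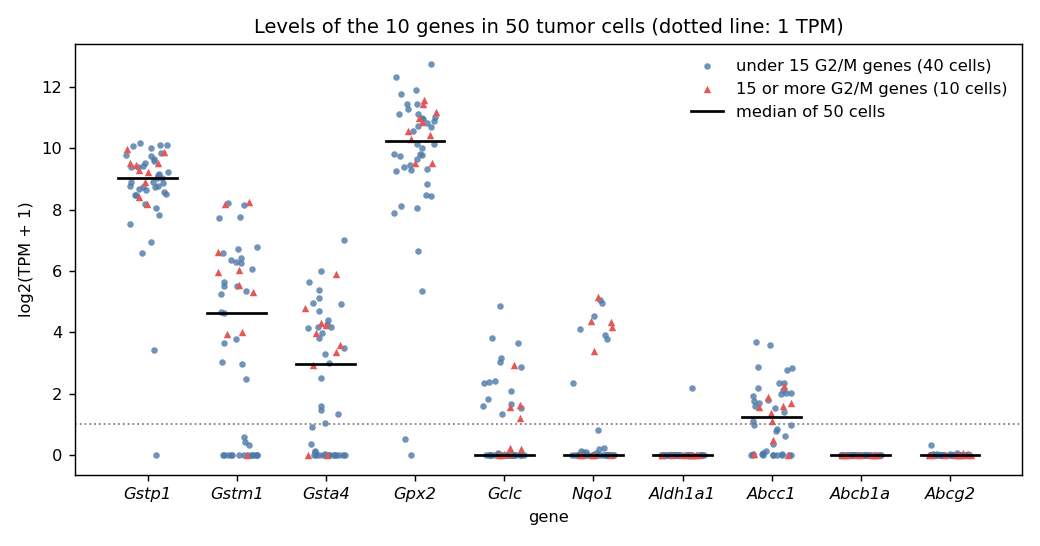
Level of each of the 10 genes, as log2(TPM + 1), in 50 tumor cells. Each point is a cell, red triangles are the 10 cells with at least 15 of 30 G2/M genes, black bars are medians, and the dotted line is 1 TPM. Gpx2 and Gstp1 sit far above the line in all but a few cells, Nqo1 is near 0 in most cells and above 10 TPM in 10, and Abcb1a and Abcg2 lie on the axis.

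Prox1, the homeobox factor named in the title, went with or against 4 of the genes. Gpx2, Gclc and Nqo1 were lower where Prox1 was higher, and Abcc1 was higher where Prox1 was higher. Gstp1, Gstm1 and Gsta4 went neither way by the size used here. A gene entered the correlations if it was seen in at least 20% of cells, which 7 of the 10 did and Aldh1a1, Abcb1a and Abcg2 did not, and a Spearman's rho of 0.3 or more in size was counted. By this count 3 of 7 went against Prox1, where 3.26% of 9165 genes did, and 1 of 7 went with it, where 8.58% did, so 4 of 7 passed in either direction, where 11.8% did. All cells share the animal, the tumor pool and the index sets, so these are descriptions of 50 cells and not of tumors in general.

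Gpx2 had the largest rho of the set with Prox1, -0.51. Its median was 1690 TPM (range 0 to 3786) in the 9 cells with Prox1 under 1 TPM, 2038 TPM (697 to 6904) in the 11 cells at 1 to 10 TPM, and 861 TPM (0.45 to 2787) in the 30 cells at 10 TPM or more. The value of 0 was the cell with the fewest genes, and without it the first class had a median of 1853 TPM (265 to 3786). The 265 TPM was the cell with the highest Paneth marker sum, and the next lowest value in that class was 739 TPM. The groups overlapped, and the cells above 2787 TPM all had Prox1 under 10 TPM. Among all genes the value lay at percentile 0.12, and Gpx2-ps1 stood at -0.52. Cells were split by i7 index into a first set (N704 to N707, 32 cells) and a second (N708 to N710, 18 cells), and rho was -0.62 in the first set and -0.30 in the second. Pearson's r was smaller, -0.21, and was -0.43 without the cell with the fewest genes, where rho was -0.59. Spearman's rho was -0.51 among the 40 cells with fewer than 15 G2/M genes and -0.40 as a partial rho given the S phase genes.

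Gclc and Nqo1 went the same way with smaller values. For Gclc rho with Prox1 was -0.36, with -0.45 and -0.14 in the index sets and a Pearson's r of -0.23. Gclc was seen in 3 of 9 cells with Prox1 under 1 TPM, 9 of 11 at 1 to 10 TPM (81.8%, interval 48.2% to 97.7%) and 7 of 30 at 10 TPM or more (23.3%, interval 9.93% to 42.3%). The share was thus highest at intermediate Prox1, not at the lowest. For Nqo1 rho was -0.34, with -0.42 and -0.16 in the index sets and a Pearson's r of -0.30. Nqo1 was seen in 4 of 9, 4 of 11 and 4 of 30 cells of the same classes, and the intervals of these shares overlapped. In the second index set neither gene passed 0.3 in size. Given the S phase genes, the partial rho was -0.24 for Gclc and -0.22 for Nqo1.

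Abcc1 was the single gene of the set that went with Prox1. Its rho was 0.36, with 0.29 and 0.51 in the index sets, and Pearson's r was 0.42. Abcc1 was seen in 1 of 9 cells with Prox1 under 1 TPM (11.1%, interval 0.281% to 48.3%), 3 of 11 at 1 to 10 TPM (27.3%, interval 6.02% to 61.0%) and 23 of 30 at 10 TPM or more (76.7%, interval 57.7% to 90.1%). The interval of the last class lay above that of the first and overlapped that of the second. Among all genes the value was less rare than that of Gpx2, at percentile 95.3. It was 0.38 in the 40 cells with few G2/M genes and 0.35 given the S phase genes. Levels were low throughout, with medians of 0.42, 0.05 and 2.33 TPM in the 3 classes.

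The remaining genes showed no relation of that size. Spearman's rho with Prox1 was 0.08 for Gstp1, -0.14 for Gstm1 and -0.16 for Gsta4, against a median of 0.05 and an SD of 0.19 over all genes. Gstp1 had medians of 460, 591 and 474 TPM from the lowest to the highest Prox1 class. Without the cell with the fewest genes the median of the lowest class was 567 TPM (95.7 to 1002).

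**Figure D2:**
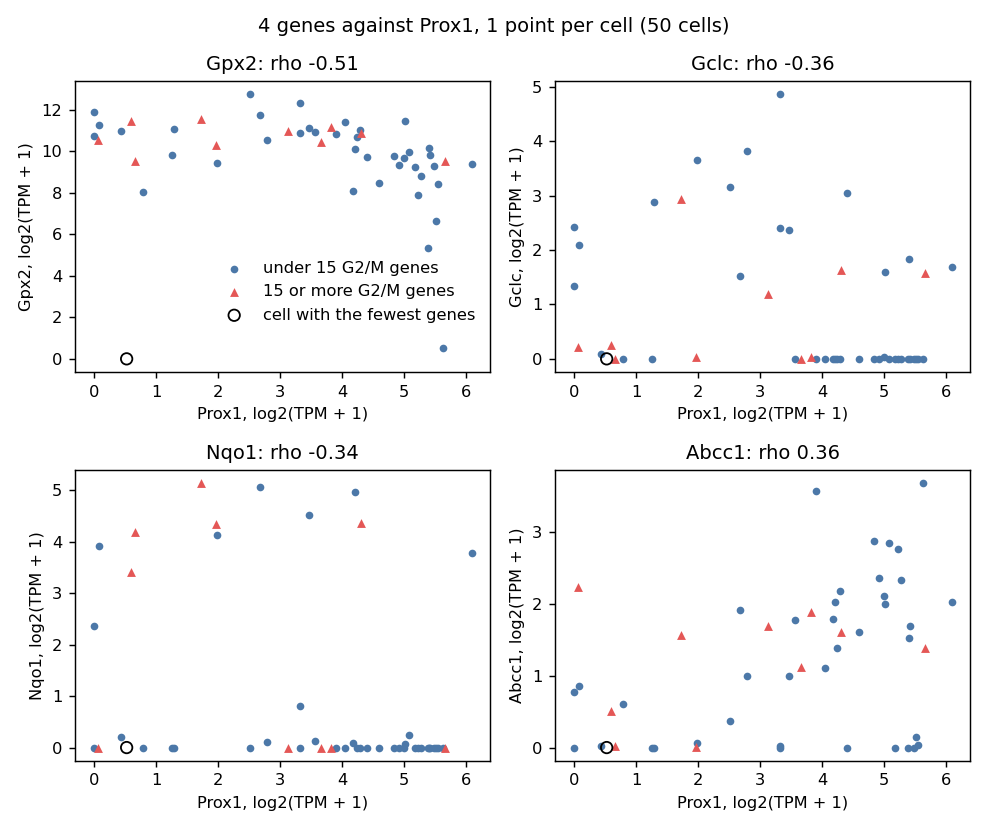
Levels of Gpx2, Gclc, Nqo1 and Abcc1 against Prox1, all as log2(TPM + 1), with 1 point for each of 50 cells. Red triangles are cells with at least 15 G2/M genes and the open circle is the cell with the fewest genes. Gpx2 is lower toward high Prox1 (rho -0.51), Gclc and Nqo1 are mostly at 0 there, and Abcc1 is mostly seen there (rho 0.36).

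Cdkn1c, which encodes the cell cycle inhibitor p57, went with none of the genes. By the same size 0 of 7 passed 0.3 in either direction, where 3.56% of 9165 genes did (2.26% with it and 1.3% against it). The values ran from -0.24 for Gpx2 to 0.20 for Gstm1. Cdkn1c was seen in 17 cells, and in those cells Gstm1 was seen in 15 (88.2%, interval 63.6% to 98.5%), against 18 of 33 cells without Cdkn1c (54.5%, interval 36.4% to 71.9%), with intervals that overlapped. Gpx2 had a median of 809 TPM (39.4 to 6904) with Cdkn1c and 1690 TPM (0 to 5106) without it, or 1745 TPM (0.45 to 5106) leaving out the cell with the fewest genes, and its highest value of all lay in a cell with Cdkn1c at 72.01 TPM. Nqo1 was seen in 4 of 17 and 8 of 33 cells, which are nearly equal shares. In the second index set alone, rho was -0.41 for Abcc1 and -0.38 for Nqo1, whereas it was 0.01 and -0.03 in the first. The copy Gstm5 had a rho of 0.33 with Cdkn1c, with 0.22 and 0.49 in the index sets.

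**Figure D3:**
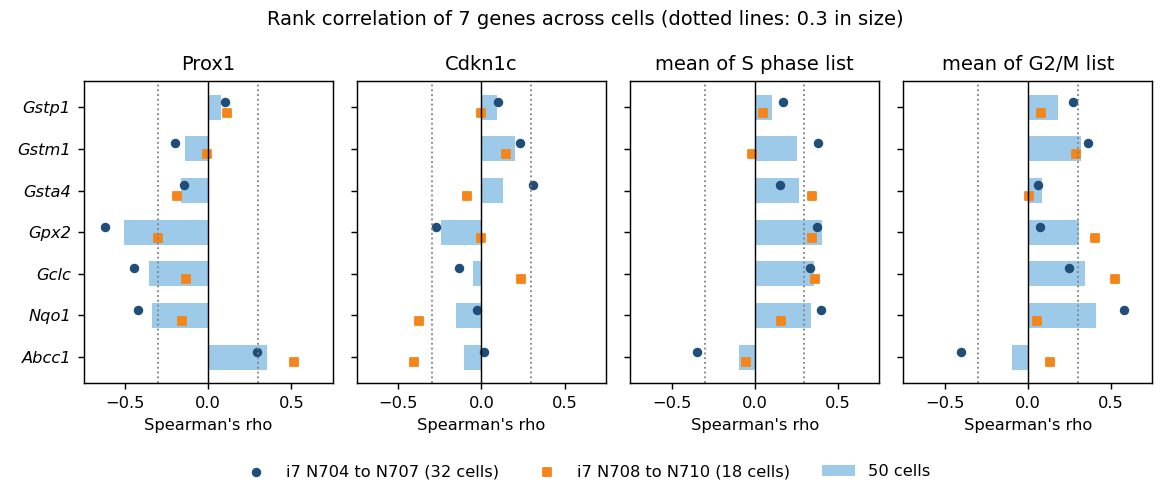
Spearman's rho of 7 genes with Prox1, Cdkn1c, the mean of the S phase list and the mean of the G2/M list. Bars are all 50 cells, dark circles the 32 cells of the first index set, orange squares the 18 cells of the second, and dotted lines mark 0.3 in size. Gpx2, Gclc and Nqo1 have bars to the left for Prox1 and to the right for both cycling lists, and Abcc1 has the only bar past the line to the right for Prox1.

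Cycling was read as the mean log2 level of 22 S phase genes and of 30 G2/M genes. By rank over all cells, Gpx2, Gclc and Nqo1 went with the S phase list, and these genes and Gstm1 went with the G2/M list. The references were themselves related, so relations with them are not separate observations. Prox1 had a rho of -0.44 with the S phase list and -0.19 with the G2/M list. Between the S phase and G2/M lists rho was 0.64. For Gclc, Pearson's r with both lists was smaller and is given below. Spearman's rho was 0.3 or more for 3 of 7 genes with the S phase list, where 15.1% of 9166 genes were, and for 4 of 7 with the G2/M list, where 15.8% were. In size, 3 of 7 and 4 of 7 passed 0.3, where 15.9% and 17.2% of genes did. None of the 7 went against either list, where 0.873% and 1.46% of genes did. The median rho of the 7 genes was 0.27 with the S phase list and 0.31 with the G2/M list, beside 0.11 and 0.11 over all genes. Cells with more genes detected also had higher cycling means (rho 0.67 and 0.60 with genes per cell), so values given the number of genes stand beside the others.

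With the S phase list rho was 0.41 for Gpx2, 0.36 for Gclc and 0.34 for Nqo1. Pearson's r was 0.40, 0.17 and 0.37 for the same genes. Given genes per cell the partial values were 0.32, 0.29 and 0.25, and given Prox1 they were 0.24, 0.24 and 0.23. Nqo1 was seen in 8 of the 17 cells with at least 11 S phase genes (47.1%, interval 22.98% to 72.2%) and in 4 of the other 33 (12.1%, interval 3.40% to 28.2%). Gclc was seen in 9 of 17 and 10 of 33. Gpx2 had medians of 1861 TPM (274 to 6904) and 899 TPM (0 to 5106), so its ranges overlapped over most of their width. The lower class had a median of 902 TPM (0.45 to 5106) without the cell with the fewest genes. Within the index sets rho was 0.38 and 0.34 for Gpx2, 0.34 and 0.36 for Gclc, and 0.40 and 0.16 for Nqo1. Abcc1 stood at -0.10, with -0.35 and -0.05 in the index sets and -0.31 given genes per cell.

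With the G2/M list Nqo1 had the largest value, 0.41, but it was 0.58 in the first index set and 0.06 in the second. Nqo1 was seen in 5 of the 10 cells with at least 15 G2/M genes (50%, interval 18.7% to 81.3%) and in 7 of the other 40 (17.5%, interval 7.34% to 32.8%), and its highest value lay in a cell with 28 of the 30 G2/M genes. Gclc stood at 0.35 (0.25 and 0.52 in the index sets) yet was seen in 4 of 10 and 15 of 40 cells, which are similar shares. Pearson's r for Gclc was 0.05. Its mean log2 level was 0.79 in the 10 cells and 0.97 in the other 40, so it was not higher in the former. Gpx2 stood at 0.31 (0.07 and 0.40), with medians of 1688 TPM (731 to 3066) and 960 TPM (0 to 6904), the latter 1015 TPM (0.45 to 6904) without the cell with the fewest genes. Gstm1 stood at 0.32 (0.36 and 0.29), being seen in 9 of 10 and 24 of 40 cells. Without the cell with the fewest genes Gpx2 was at 0.27 and Gstm1 at 0.29, just under the size counted. Given genes per cell Nqo1 alone kept a value above 0.3, at 0.35. Gstp1 (0.18), Gsta4 (0.08) and Abcc1 (-0.09) showed no relation of that size over all cells. For Abcc1 the index sets differed in sign, with -0.40 and 0.13, and the value given genes per cell was -0.27.

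The genes that opposed Prox1 also went with each other. Of the 21 pairs among the 7 genes, 4 had a rho of 0.3 or more, where 4.63% of all gene pairs did, and 0 of -0.3 or less, where 0.913% did, around a median of 0.09. These pairs share genes and are not separate observations. The highest was Gpx2 with Gclc, a glutathione peroxidase and a subunit of the ligase at the start of glutathione synthesis, at 0.58 (0.54 and 0.74 in the index sets). Gsta4 with Gpx2 stood at 0.46 (0.31 and 0.64), Gclc with Nqo1 at 0.37 (0.34 and 0.43) and Gpx2 with Nqo1 at 0.35 (0.32 and 0.47). Gclc and Nqo1 were seen together in 8 cells, Gclc without Nqo1 in 11, Nqo1 without Gclc in 4, and neither in 27. The lowest pair was Gclc with Abcc1, at -0.28, although both are NRF2 targets by textbook knowledge. Over all cells Gstp1 had no value of 0.3 or more with any other gene of the set.

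The genes whose levels were most like each of the 7 were taken over all cells, with a positive rho in both index sets. Besides its pseudogene, Gpx2 was closest to Lgals4 (0.67), a galectin gene of the gut epithelium, and to Myo1a (0.64), the brush border myosin gene. Gclc was closest to Ppp1r1b (0.70), to Lgals4 (0.65) and to Sfn (0.63), which encodes the 14-3-3 sigma protein. Lgals4 thus appeared for both genes of the closest pair. Nqo1 was closest to Ddc (0.64), the aromatic amino acid decarboxylase gene, Fabp5 (0.57) and C9orf72 (0.54). Abcc1 was closest to Cdk10 (0.60), Snrnp48 (0.58) and Cir1 (0.54). Gstp1 was closest to Traf5 (0.74), Zcchc10 (0.54) and Bmf (0.48), Gstm1 to Gm13199 (0.54), Tbc1d12 (0.50) and the glucuronosyltransferase gene Ugt2b34 (0.50), and Gsta4 to Hspbp1 (0.60), Brd3 (0.55) and Tmem259 (0.47). These are the highest among 9166 genes for each, in 50 cells, and are given as a description.

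The wider pathways were read in the same way. Over 8 lists with 112 distinct genes in the correlations, 11 genes went with Prox1 and 6 against it, where 8.58% and 3.26% of all genes did. With Cdkn1c went 4 genes and against it 3, where 2.26% and 1.3% did. With the S phase list went 24 and against it 1, where 15.1% and 0.873% did, and with the G2/M list 22 and against it 1, where 15.8% and 1.46% did. The lists, like the set, were drawn up with earlier results of these cells known. The median rho over the 112 genes was 0.02 with Prox1 and 0.16 with the S phase list, beside 0.05 and 0.11 over all genes, so most of these genes did not share the relation of Gpx2 with Prox1.

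Peroxide-handling genes were abundant. Gpx1, the ubiquitous glutathione peroxidase, was seen in 50 cells (median 3821 TPM), the peroxiredoxin gene Prdx2 in 50 (1039 TPM) and the superoxide dismutase gene Sod1 in 50 (753 TPM). Of 19 genes of this list in the correlations, 7 went with the S phase list and 0 against it, where 15.1% and 0.873% of all genes did, led by Sod1 (0.61), Prdx4 (0.56) and Txn1 (0.51). With Prox1 1 of the 19 went each way, where 8.58% of all genes went with it and 3.26% against it. These were the methionine sulfoxide reductase gene Msrb2 at 0.62 and Gpx2 at -0.51. Gpx1, with -0.03, did not share the relation of Gpx2 with Prox1.

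In glutathione synthesis and recycling, the 2 subunit genes of the ligase differed in level. Gclm, the modifier subunit, was seen in 49 cells (median 105 TPM), whereas Gclc was seen in 19. Gclm went with the S phase list (0.49) and the G2/M list (0.51), and stood at -0.17 with Prox1. Of 18 genes in the correlations, 2 went with Prox1, where 8.58% of all genes did. These were the amino acid transporter genes Slc1a4 (0.40) and Slc1a5 (0.31). Gclc alone went against Prox1, where 3.26% of all genes did. Of 19 transferase genes, 1 went with Prox1 (Gstz1, 0.37), where 8.58% of all genes did. Against Prox1 went 2 (Gstt3, -0.32, and Gstcd, -0.31), where 3.26% did. With the S phase list went 3 (Gstp2, Gsto1 and Gsta3, at 0.40, 0.39 and 0.38), where 15.1% did, which is close to that share.

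Efflux genes beyond the set were read as well. Of 21 genes listed, 8 entered the correlations, a share close to that of all genes in the table (9166 of 24410). In no cell were 7 of the 21 seen, and the share of all genes seen in no cell was not counted. Abcc4, which exports nucleotide analogs and cyclic nucleotides, was seen in 41 cells (median 2.79 TPM), and the vault protein gene Mvp in 36. Abca3 (0.39) and Abcc1 went with Prox1, where 8.58% of all genes did. Of the 8, 0 passed 0.3 in size with the S phase list or the G2/M list, where 15.9% and 17.2% did. Of 17 aldehyde and carbonyl genes in the correlations, 0 passed 0.3 in size with Prox1, where 11.8% of all genes did. With the S phase list went 3 (Akr1b3, 0.49, Aldh9a1, 0.41, and Aldh1b1, 0.30), where 15.1% did, which is close to that share. The most widely seen were the aldo-keto reductase gene Akr1a1, in 49 cells, the alcohol dehydrogenase gene Adh5, in 47, and the fatty aldehyde dehydrogenase gene Aldh3a2, in 46, so aldehyde enzymes other than Aldh1a1 were widespread. Of the cytochrome, conjugation and antimetabolite genes, 11 of 28 were seen in no cell, again without a share over all genes to set beside it. Por, which passes electrons to cytochromes P450, stood at 0.46 with Prox1.

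The list of NRF2 targets holds several genes of the set, and they led it in both directions with Prox1 alongside Fth1. Of 20 target genes in the correlations, 3 went against Prox1, namely Gpx2, Gclc and Nqo1, where 3.26% of all genes did. With Prox1 went 2, the ferritin gene Fth1 (0.49) and Abcc1, where 8.58% did. The median of the 20 with the S phase list was 0.25, beside 0.11 over all genes. At 0.3 or more were 7 of the 20, Gpx2, Gclc and Nqo1 among them, where 15.1% of all genes were, and 0 were at -0.3 or less, where 0.873% were. Hmox1, the heme oxygenase gene that NRF2 also controls, was listed at 0 in all cells, whereas Fth1 and Ftl1 were seen in all 50 at medians of 5804 and 5967 TPM. Among the 12 regulators, the small Maf gene Mafg (0.51), the ubiquitin ligase gene Cul3 (0.44) and Maff (0.35) went with Prox1, where 8.58% of all genes did. Park7 (-0.30) went against Prox1, where 3.26% did. Over all cells Mafg stood at -0.31 with the S phase list and -0.42 with the G2/M list, the opposite of Gpx2, Gclc and Nqo1. In the index sets Mafg was at -0.35 and -0.19 with the S phase list. With the G2/M list it was at -0.58 in the first and 0.14 in the second, so the sign differed.

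**Figure D4:**
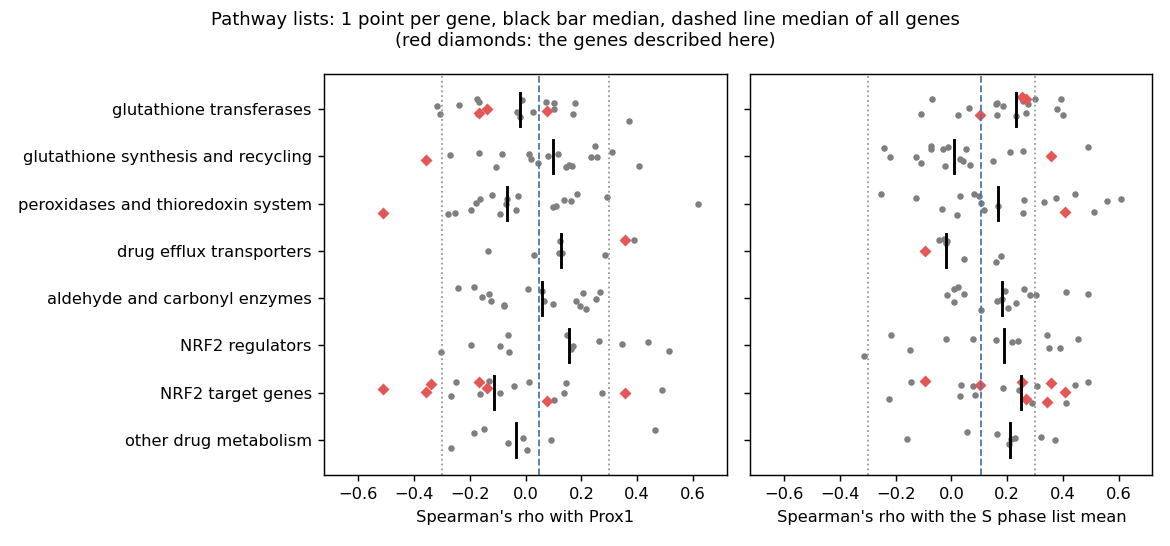
Spearman's rho with Prox1 (left) and with the mean of the S phase list (right) for the genes of 8 pathway lists, with 1 point per gene, black bars for list medians, a dashed line for the median of all genes and dotted lines at 0.3 in size. Red diamonds are genes of the set. Gpx2, Gclc and Nqo1 lie at the left edge of their lists for Prox1, and most genes lie between the dotted lines.

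Markers of other cell types were read beside these relations. All 5 epithelial markers were seen in all 50 cells. Of 5 goblet cell markers, Agr2 was seen in 25 cells, Spink4 in 8, Tff3 in 2, and Muc2 and Fcgbp in 1 each, and their summed level (0 to 1923 TPM, median 9.94) had a rho of 0.29 with Gpx2, 0.32 with Gclc, 0.35 with Nqo1 and -0.31 with Prox1. Of 5 colonocyte markers, Car4, Aqp8, Slc26a3 and Krt20 were seen in no cell, and the sum (0 to 7.83 TPM), which was Car1, had a rho of 0.34 with Gpx2. Of 4 fibroblast markers, Col1a2 and Col3a1 were seen in no cell, Col1a1 in 1 and Pdgfra in 25, and the sum (0 to 8.92 TPM) had a rho of 0.45 with Abcc1 and 0.35 with Prox1. Abcc1 also had a rho of 0.32 with the sum of 5 Paneth markers (0.39 to 354212 TPM, median 481). Of these markers, Mmp7 was seen in 48 cells (median 445 TPM), Lyz1 in 24, Defa24 in 22, Defa17 in 21 and Defa21 in 2. Without the cell with the highest Paneth sum, the rho of Abcc1 with Prox1 was 0.35. Among immune markers, Ptprc and Cd3e were seen in no cell and Csf1r in 21, and the sum (0 to 80.7 TPM) had a rho of -0.41 with Gsta4. The sum of enteroendocrine markers, in which Fev was seen in 50 cells and Chga, Chgb, Neurod1 and Gcg in none, stood at -0.34 with Gsta4. The part of these markers in the relations was not tested.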

How the data were processed

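Single-cell RNA-seq libraries (56, 1 group) of colon tumor cells were analysed from 1 table of TPM. The submitters' processing notes name RSEM 1.2.31, Bowtie2 2.2.9, bcl2fastq 1.8.4 and GRCm38.p4 as the build. No setting, annotation release or use of strand is stated in the labels. TPM values were deposited by the authors and have the same sum in each library, so read depth is unknown and an exact 0 means only listed at 0. Without a stated use of strand, reads of overlapping genes cannot be told apart.

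The GENCODE M21 gene names (GRCm38) matched 24235 of 24410 IDs. Library pairs with Pearson's r above 0.9 on log2(TPM + 1) were averaged (6 pairs, r 0.957 to 0.992, next highest 0.782), giving 50 cells. Correlations were Spearman's rho on log2(TPM + 1) over the 9166 genes that 20% of cells held at 1 TPM or above, or 9165 when Prox1 or Cdkn1c was itself the reference. No test was run, since cells of 1 mouse are not replicates. The genes named were the 10 genes, their copies, the 3 genes most like each, and for each pathway list the widely seen genes and those of largest rho; Gpx1, Gclm, Hmox1 and other list genes were named after their values were seen. The genes, lists and thresholds were chosen with earlier results of these data known. Coding sequences were aligned with Biopython 1.88, and the correlation step was tested on simulated data. Software was SciPy 1.17.1, pandas 2.3.3, numpy 2.4.6 and matplotlib 3.10.9 under Python 3.11.15. Alternatives were other detection thresholds, pseudocount 0.1, Pearson's r, partial rho, other gene filters, all 56 libraries as cells, rescaled TPM, summed copies, single index sets and left-out cells.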

Additional observations from a re-analysis of the deposited data

How the results depend on the processing

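No paired analysis was possible because the labels name 1 group. The 11 relations of single genes at 0.3 or more in size kept their sign in all of up to 17 alternatives, and 0 of the 11 stayed past 0.3 in every one; Gpx2 with Prox1 ran from -0.62 to -0.13, Abcc1 with Prox1 from 0.25 to 0.51, Gclc with Prox1 from -0.45 to -0.14 and Nqo1 with Prox1 from -0.51 to -0.16. At a threshold of 10 TPM a median of 3 genes was seen per cell in place of 5. The counts of genes of the set past 0.3 (4 with Prox1, 0 with Cdkn1c, 3 with the S phase list, 4 with the G2/M list) and of pathway genes (17, 7, 25 and 23) moved as follows. Pearson's r with a pseudocount of 0.1 gave 1 gene of the set with Prox1, 1 with G2/M, and 10 and 3 pathway genes with Prox1 and Cdkn1c, and Pearson's r gave 1 and 2 of the set and 4 pathway genes with Cdkn1c. Pearson's r without the cell with the fewest genes gave 1 with G2/M, and rho without it gave 2. Partial rho given genes per cell gave 1 of the set with G2/M, and 15 and 11 pathway genes with S phase and G2/M. Partial rho given the S phase list or Prox1 gave 2 of the set with Prox1, 0 with S phase and 0 with G2/M, and 8 pathway genes with G2/M. A filter of 50% of cells gave 2, 1 and 2 of the set with Prox1, S phase and G2/M, and 10 pathway genes with Prox1, since genes seen in fewer cells, Gclc and Nqo1 among them, leave the table there. Cells with fewer than 15 G2/M genes gave 2 with G2/M. The i7 indexes N704 to N707 gave 1 of the set with Cdkn1c and 5 with S phase, and 27 and 15 pathway genes with Prox1 and Cdkn1c. The i7 indexes N708 to N710 (18 cells) gave 2 each with Prox1, Cdkn1c and G2/M, and 44, 22 and 38 pathway genes with Prox1, Cdkn1c and S phase. The i5 indexes N502 to N505 (26 cells) gave 1 with Cdkn1c, and 37, 17, 40 and 35 pathway genes, and N506 to N517 (27 cells) gave 2 with Prox1 and 14 pathway genes with Cdkn1c. These i5 sets overlap, since an averaged cell with a library in each was counted in both. Fewer cells widen the spread of rho, and other causes were not tested. The share of all genes past 0.3 was counted only over the 50 cells, so the counts in smaller sets have no such share beside them. Partial values given the lists or Prox1, cells with few G2/M genes, i5 sets, leaving out the averaged pairs or the cell with most Paneth markers, Pearson's r without the cell with the fewest genes, and levels without it were chosen after seeing the data. TPM keep no depth, so how far depth limits Abcc1, Gclc and the unseen transporters is unknown.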

Other observations

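Gstp2, which the set leaves out, had a rho of 0.40 with the S phase list, but 0.46 in the first index set and -0.18 in the second, whereas its neighbour Gstp1 stood at 0.10. With Gstp1 and its close copies summed, rho was 0.30 with the S phase list, past the size counted, and 0.26 with the G2/M list. How reads were split between these copies was not tested. Counting every value above 0 TPM as seen would put Abcc1 in 82% of cells and Abcg2 in 14%, and counting from 10 TPM would leave Abcc1 in 4%, Gclc in 6% and Gsta4 in 44%.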
